A study of Danio rerio with 8 samples.

Results

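Genes of GPI-anchored cell surface proteins were described in zebrafish primordial germ cells (PGCs), the embryonic precursors of eggs and sperm, of pigu-/- and wild type embryos. The members were table entries chosen by symbol alone: 9 of 10 genes listed singly (thy1, alpl, gas1a, gas1b, reck, nt5e, cpm, negr1 and ntm), and all glypicans 1 to 6, ephrins A1 to A5, GDNF family receptors alpha 1 to 4, repulsive guidance molecules a, b and d, contactins 1 to 6 and neuritins. The tenth, lsamp, had no entry under that symbol. This gave 49 of the 31200 symbols of the table, each with 1 entry. No expression value was used in the choice, although results of these data were known when it was made.

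The 4 groups, with 2 libraries each, were PGCs of pigu-/- embryos at bud (the end of gastrulation), of wild type (WT) embryos at bud, of pigu-/- embryos at shield (early gastrula) and of WT embryos at shield. The comparisons ask which transcripts differ in PGCs of embryos mutant for pigu, which codes for a GPI transamidase subunit, in a study of PGC migration. Whether Pigu protein was lost in these cells was not measured. Wild type strains were Tuebingen and India. In all groups the PGCs had been marked by injecting zygotes with mRNA for GFP joined to the nanos1 3′UTR, were picked by hand after dissociation and, once the leftover somatic cells had been genotyped, were pooled by genotype before SMART-seq2, a poly(A)-based method for low RNA input. The labels give neither the pigu allele nor whether maternal pigu product was present, and each library is a pool, so that differences between embryos were not measured.

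A GPI anchor is a glycolipid that holds a protein on the outer leaflet of the plasma membrane. In the endoplasmic reticulum the GPI transamidase, of which Pigu is a subunit, cuts a hydrophobic signal from the C-terminal end of the precursor and attaches the anchor in its place. Anchored proteins include cell adhesion molecules, co-receptors for secreted signals, contact-dependent ligands and ectoenzymes, and in gastrulating embryos several of them act in cell movement and patterning. The table measures mRNA, so neither anchor attachment nor surface protein was observed.

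Of the 49 members, 32 were detected, meaning a value of at least 1 FPKM (fragments divided by transcript length and by the mapped fragments of a library) in at least 1 library. The contactin cntn1a and the glypican gpc4 were detected in all 8 libraries, and alpl, efna1b, gas1a and rgmd in 7. Another 5 members, cntn1b, cntn3a.1, efna3a, gfra3 and gpc5a, reached 1 FPKM in 1 library each. By family, the detected members were 9 of 9 genes listed singly, 7 of 10 glypicans, 7 of 8 ephrins, 5 of 8 contactins, 3 of 3 repulsive guidance molecules, 1 of 7 GDNF family receptors and 0 of 4 neuritins. Among the 17 undetected members, 11 were listed at 0 in every library and the highest value of the others was 0.947 FPKM, for gpc6a. The heat map of the detected members gives every library.

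**Figure D1:**
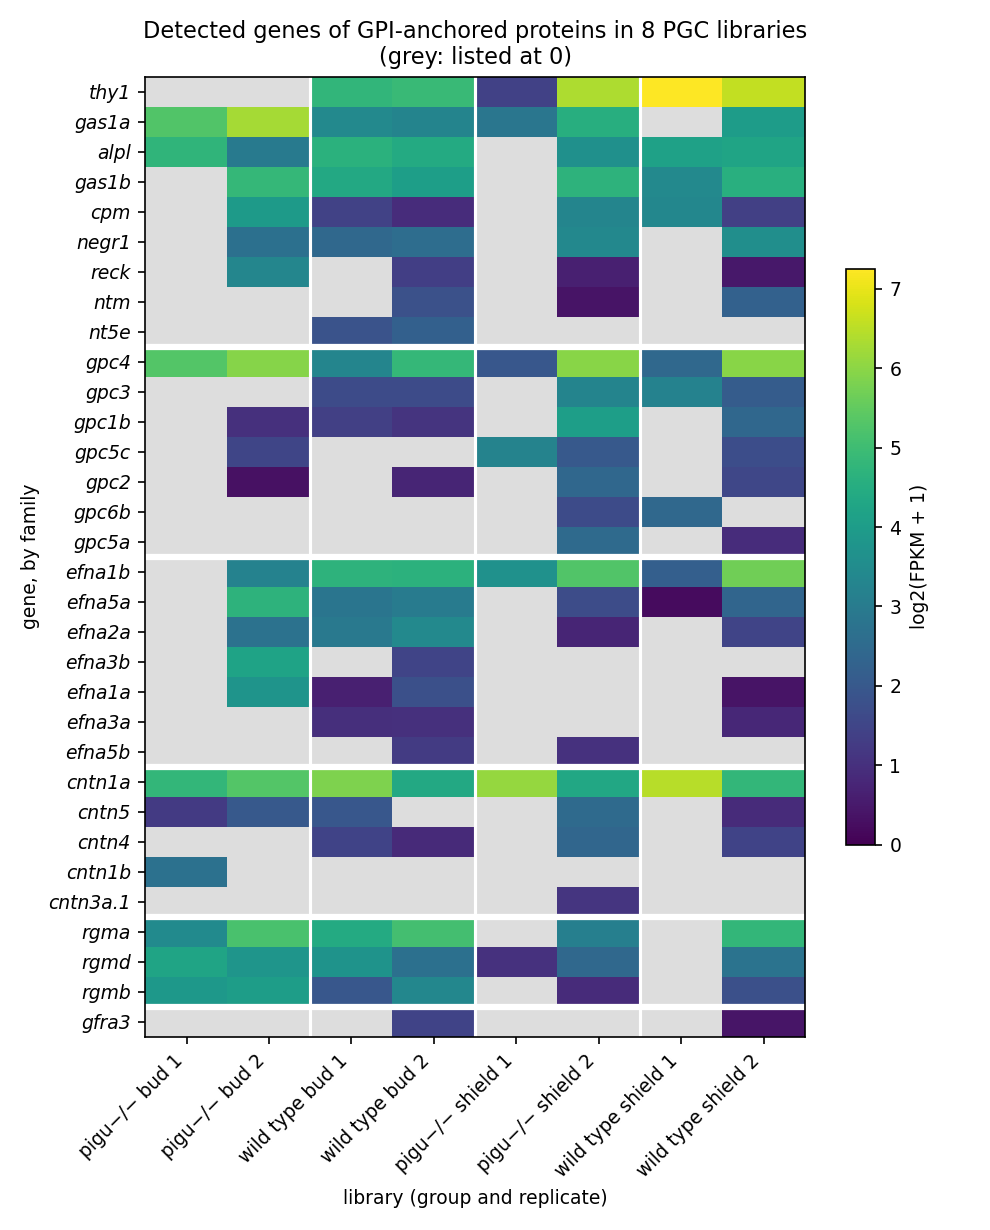
Levels of the 32 detected members as log2(FPKM + 1), with a row per gene grouped by family and a column per library; grey marks a value listed at 0. Rows cntn1a and gpc4 are filled in all 8 libraries, thy1 is grey in both pigu-/- bud libraries, and the replicate 1 columns of pigu-/- bud, pigu-/- shield and WT shield are mostly grey.

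How many members a library showed went with how many genes it showed at all. Members detected in replicates 1 and 2 numbered 9 and 19 in mutant bud, 19 and 23 in WT bud, 7 and 22 in mutant shield, and 9 and 20 in WT shield. All genes detected in the same libraries numbered 6708 and 12037 in mutant bud, 11460 and 13007 in WT bud, 5878 and 12046 in mutant shield, and 8338 and 12293 in WT shield. The 3 libraries with under 10 members were thus the 3 with the fewest genes, and they belong to both genotypes and both stages.

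**Figure D2:**
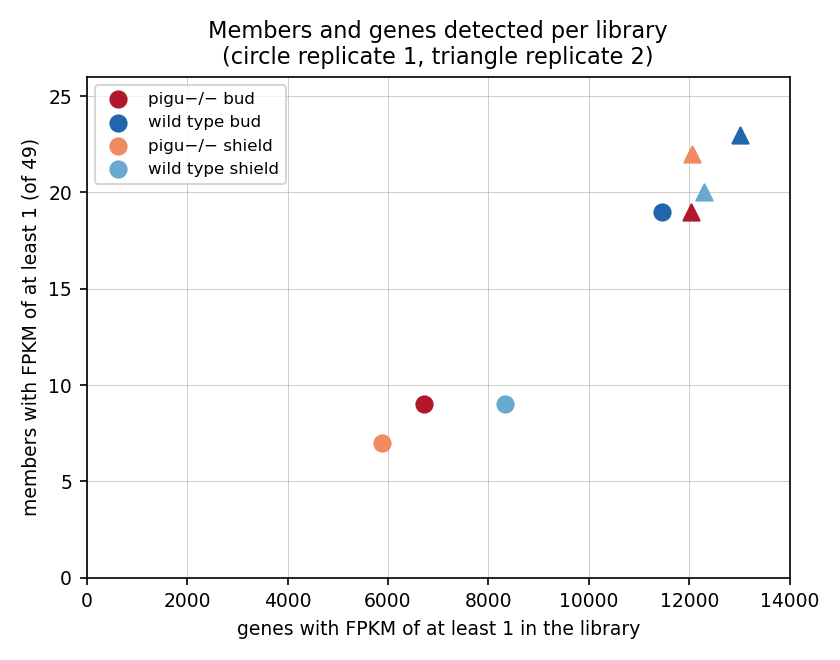
Members with FPKM of at least 1 (y axis, of 49) against all genes with FPKM of at least 1 (x axis) in each library; circles are replicate 1 and triangles replicate 2. The replicate 1 libraries of mutant bud, mutant shield and WT shield lie at 7 to 9 members and 5878 to 8338 genes, and the other 5 libraries at 19 to 23 members and 11460 to 13007 genes.

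A value of 0 in these libraries does not show that a transcript was absent. Of the genes with at least 10 FPKM in the other 7 libraries, 161 of 2073 were listed at 0 in mutant bud replicate 1, 186 of 2449 in mutant shield replicate 1 and 12 of 1946 in WT shield replicate 1, against at most 4 in each of the others. Genes with symbols of the form rpl or rps and a digit, as used for ribosomal proteins, were also among the zeros. The pattern can also match other genes, and which of them were at 0 was not examined. The zeros were 6 of 86 in mutant bud replicate 1, 8 in mutant shield replicate 1 and 6 in WT shield replicate 1. In the other 5 libraries they were 0 to 2. Members listed at 0 in replicate 1 but at 5 FPKM or more in replicate 2 numbered 9 in mutant bud, 0 in WT bud, 7 in mutant shield and 4 in WT shield. Values are therefore given library by library, with no mean and SD.

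Germ cell markers were read in all libraries, with the germ plasm gene ddx4 (vasa) between 106 and 1401 FPKM and 12 to 16 of 16 markers detected. The summed FPKM of the 16 were lowest in mutant bud replicate 2 (3807) and mutant shield replicate 1 (5774). In the other 6 libraries they were 8147 to 36503. The largest of the 16 in every library was nanos3, with 1518 FPKM in mutant bud replicate 2. It had 2885 FPKM in mutant shield replicate 1 and 20924 FPKM in mutant shield replicate 2. Whether reads of the injected mRNA with the nanos1 3′UTR add to nanos3 was not examined, so the sums are no clean measure of germ cell content. Mutant bud replicate 2 stood apart in several lists of somatic markers, but not in all. Its epidermis markers summed to 332 FPKM, against 673 and 709 FPKM in WT bud, but 11 of 13 were detected, against 9 and 10. The largest of them were bambia and epcam, with 88.2 and 66.4 FPKM in that library. They had 272 and 146 FPKM in WT bud replicate 1, and 348 and 156 FPKM in WT bud replicate 2. Its endoderm markers summed to 135 FPKM with 7 of 7 detected, against 20.3 and 7.37 FPKM in WT bud. The summed FPKM of 22 neural ectoderm genes were 248 and 1367 in mutant bud against 63.9 and 59.0 in WT bud, and those of 15 genes of axial mesoderm and prechordal plate were 57.1 and 1045 against 37.2 and 38.0. Enveloping layer genes, which mark the outer epithelium, summed to 1074 FPKM in mutant bud replicate 2 and 634 FPKM in mutant shield replicate 1, and to between 30.3 and 94.7 FPKM in the other 6 libraries. The part of somatic cells in the values below was not tested, and in pooled bulk RNA fewer cells of a type and less RNA per cell cannot be told apart.

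Against this spread, no member passed the test in any comparison. With limma on log2(FPKM + 1) over 13984 genes, of which 27 were members, 0 members and 0 genes in all (0%) had an adjusted p under 0.05 for genotype at bud, genotype at shield, genotype over both stages, stage in mutant, stage in wild type or the interaction of genotype and stage. At an unadjusted p under 0.05 there were 2 members at bud (nt5e and thy1), where 4.84% of all genes lay, and 0 at shield, where 1.44% lay. Over both stages there were 2 (nt5e and thy1, against 4.27% of all genes), in the stage comparison of mutant cells 2 (rgmb and thy1, 6.64%), in that of wild type cells 1 (nt5e, 3.34%) and in the interaction 1 (nt5e, 1.42%). The median log2 difference between mutant and wild type over both stages was −0.19 for the 27 members and −0.42 for all genes. Of the 27, 12 lay above 0 and 15 below it before scaling, against 29% and 71% of all genes. With median-of-ratios scaling the counts were again 12 and 15. After quantile normalization 16 lay above and 11 below, and the median of all genes was 0.03. The balance of directions thus depends on which scaling is used.

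Adhesion molecules of the immunoglobulin superfamily included thy1, the member with the highest mean level over the 8 libraries, 48.0 FPKM. thy1, which codes for a small glycoprotein best known in mammals as a marker of T cells and neurons, was listed at 0 in both mutant bud libraries, against 26.6 and 29.2 FPKM in WT bud, and stood at 1.66 and 80.8 FPKM in mutant shield, against 151 and 94.4 FPKM in WT shield. Both mutant libraries lay below both wild type libraries at each stage, but the upper mutant shield library came close to the lower wild type one. The value of 1.66 FPKM and that of 0 in mutant bud replicate 1 came from libraries with few detected genes. The highest value, 151 FPKM in WT shield replicate 1, also came from such a library. Mutant bud replicate 2, where thy1 was at 0 too, had 12037 detected genes and the lowest summed germ cell markers. The part of these traits of the libraries in the thy1 values was not tested. thy1 was the only member of the 27 (3.70%) with such a separation in the lower direction at both stages, which 4.46% of all genes showed. No member was separated in the higher direction at both stages, where the share of all genes was 0.422%.

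The limma difference of thy1 over both stages was −3.94 (SE 1.07) on the log2(FPKM + 1) scale, with an unadjusted p of 0.0022 and an adjusted p of 0.983. Since both mutant bud values are 0, its size rests on the pseudocount and was −5.73 with 0.1 and −2.55 with 5. Without mutant shield replicate 1 it was −2.71 and without mutant shield replicate 2 it was −5.18. At bud alone the adjusted p was 0.959 and at shield 1, and the interaction of genotype and stage had an adjusted p of 1. thy1 was also lower at bud than at shield in both genotypes, with no overlap of the libraries (adjusted p of 0.713 in mutant and 1 in wild type cells).

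Contactins join immunoglobulin and fibronectin domains and are known from axons. cntn1a stood at 27.0 and 39.0 FPKM in mutant bud, 56.4 and 19.8 in WT bud, 68.1 and 19.5 in mutant shield, and 88.1 and 27.1 in WT shield. Its groups overlapped in every comparison, and it was the member with the highest minimum, 19.5 FPKM. The paralogue cntn1b reached 5.55 FPKM in mutant bud replicate 1 and was listed at 0 in the other 7 libraries. cntn5 had 1.35 and 3.10 FPKM in mutant bud and 2.92 and 0 in WT bud, with 0 and 4.64 in mutant shield and 0 and 0.857 in WT shield. cntn4 was listed at 0 in both mutant bud libraries and had 1.75 and 0.823 FPKM in WT bud, 0 and 4.23 in mutant shield and 0 and 1.74 in WT shield. cntn3a.1 reached 1.17 FPKM in 1 library, mutant shield replicate 2, while cntn2, cntn3a.2 and cntn3b stayed undetected.

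The IgLON genes negr1 and ntm code for short adhesion proteins of the nervous system. negr1 had 0 and 5.35 FPKM in mutant bud, 4.48 and 5.09 in WT bud, 0 and 9.39 in mutant shield, and 0 and 10.9 in WT shield, so that its zeros were in the 3 libraries with the fewest genes. ntm was listed at 0 in mutant bud and had 0 and 2.47 FPKM in WT bud, 0 and 0.297 in mutant shield, and 0 and 3.73 in WT shield.

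Among the ectoenzymes, alpl codes for tissue-nonspecific alkaline phosphatase, whose activity is a classic stain of mouse PGCs. It stood at 25.7 and 6.96 FPKM in mutant bud, 23.7 and 20.8 in WT bud, 0 and 11.4 in mutant shield, and 16.8 and 17.8 in WT shield. The 4 wild type libraries lay within 16.8 and 23.7 FPKM, while the mutant libraries ranged from 0 to 25.7 FPKM. At shield the mutant libraries lay below the wild type ones without overlap, and at bud they overlapped. The limma difference over both stages came to −1.52 (SE 1.05) with an adjusted p of 0.983, and it was −0.62 without mutant shield replicate 1, where it is listed at 0, and −2.43 without mutant shield replicate 2.

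nt5e codes for the ecto-5′-nucleotidase CD73, which makes adenosine from AMP outside the cell. It was read in WT bud, at 2.59 and 3.71 FPKM, and listed at 0 in mutant bud, mutant shield and WT shield. Its low, closely spaced values gave an unadjusted limma p of 0.0064 between mutant and wild type at bud and between bud and shield in wild type, with adjusted p of 0.959 and 1. With a level so near the detection limit, values of 0 in the other 6 libraries do not show that it was absent there.

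cpm, which codes for carboxypeptidase M, an enzyme that trims basic residues from peptides, varied without order by group. It had 0 and 14.5 FPKM in mutant bud, 1.69 and 0.889 in WT bud, 0 and 8.89 in mutant shield, and 9.27 and 1.59 in WT shield. reck, a membrane inhibitor of metalloproteinases and co-receptor of Wnt7 ligands, was at 0 and 9.02 FPKM in mutant bud, 0 and 1.56 in WT bud, 0 and 0.562 in mutant shield, and 0 and 0.385 in WT shield. Its value of 9.02 FPKM was in mutant bud replicate 2, the library with high neural, axial and enveloping layer markers. Of 9 genes listed as partners of Reck, 4 were tested and 0 were called by limma over both stages. Of the 4, 1 lay above 0 and 3 below, against 29% and 71% of all genes.

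**Figure D3:**
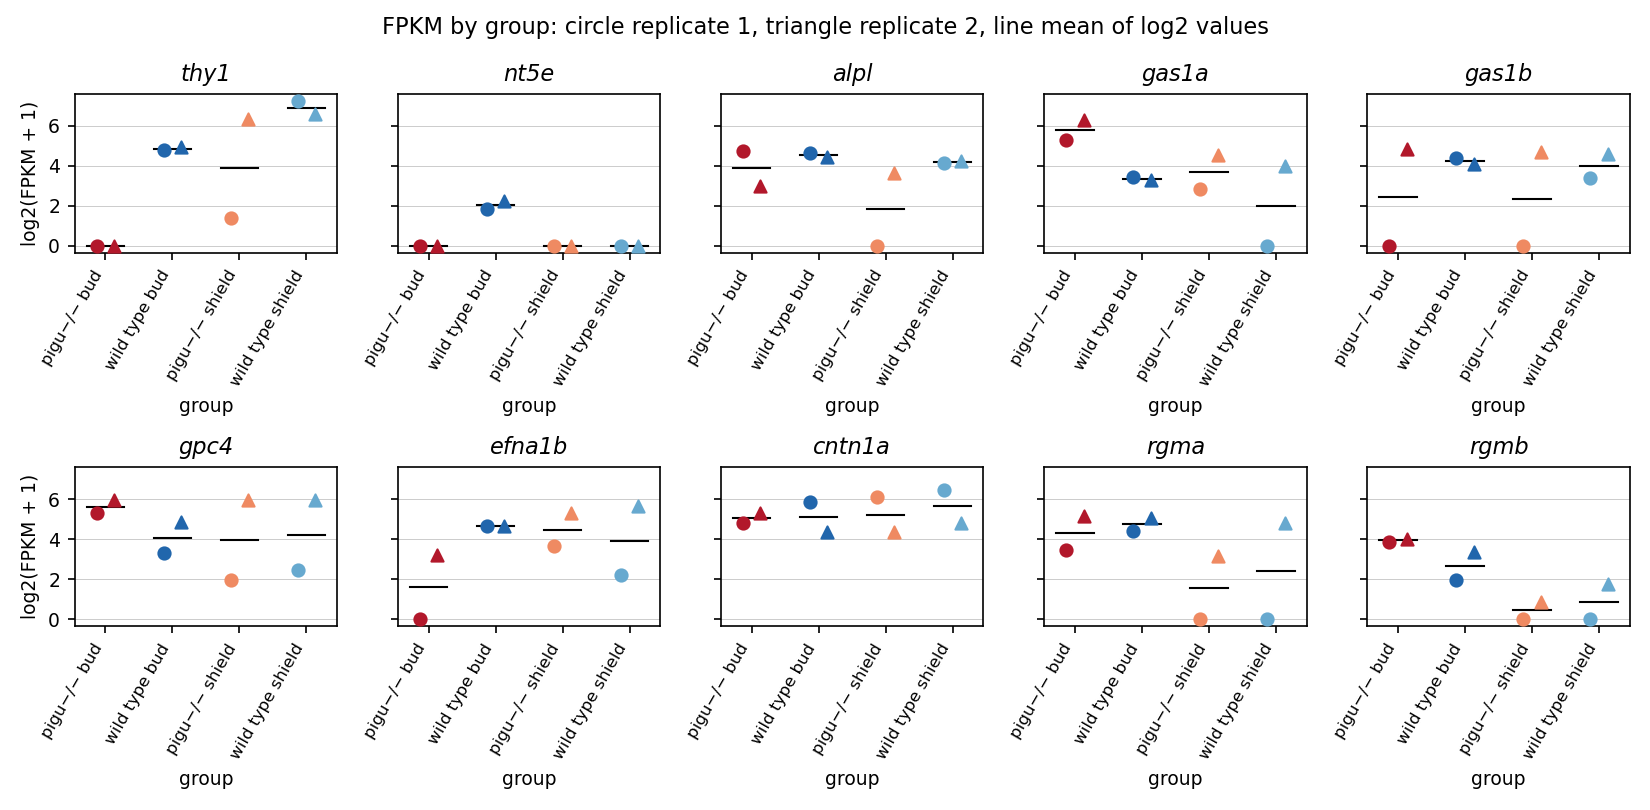
Values of 10 members as log2(FPKM + 1) on the y axis, by group on the x axis; circles are replicate 1, triangles replicate 2, and the line is the mean of the log2 values of the pair. thy1 lies lower in mutant than in wild type libraries at both stages and gas1a lies higher in mutant bud (38.1 and 76.8 FPKM) than in WT bud (9.73 and 8.69 FPKM). gas1b, gpc4 and efna1b spread widely between replicates, as does thy1 in mutant shield (1.66 and 80.8 FPKM).

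The co-receptors gas1a and gas1b, paralogues whose products bind Hedgehog ligands, had log2 differences of opposite sign over both stages. Both had their highest value in mutant bud replicate 2. gas1a stood at 38.1 and 76.8 FPKM in mutant bud, against 9.73 and 8.69 FPKM in WT bud, and at 6.21 and 22.5 FPKM in mutant shield, against 0 and 15.0 FPKM in WT shield. Its mutant bud libraries were the highest of the 8 and did not overlap those of WT bud or mutant shield, whereas the shield groups overlapped. Over both stages the log2 difference was 2.07 (SE 1.06, unadjusted p = 0.069, limma adjusted p = 0.983), and 1.07 without WT shield replicate 1, which is listed at 0. Summed markers of paraxial and lateral mesoderm (20 genes) were also higher in mutant bud, at 445 and 779 FPKM, against 110 and 183 FPKM in WT bud. The neural and axial sums above were higher there too. Of the 20 paraxial and lateral genes, 6 and 17 were detected in mutant bud, against 12 and 14 in WT bud. The largest in mutant bud replicate 1 were her7 (253 FPKM) and tbx16 (118 FPKM). The neural sums rested on 8 and 18 of 22 detected genes in mutant bud, against 11 and 12 in WT bud. The axial sums rested on 3 and 15 of 15, against 6 and 5. Of all tested genes, 47.0% and 81.0% were detected in mutant bud, against 79.8% and 89.2% in WT bud. Epidermis markers summed to 284 and 332 FPKM in mutant bud, against 673 and 709 FPKM in WT bud. Of these 13 markers, 4 and 11 were detected in mutant bud, against 9 and 10 in WT bud. The part of somatic cells in the gas1a values was not tested.

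gas1b had 0 and 27.6 FPKM in mutant bud, 19.7 and 15.7 in WT bud, 0 and 25.0 in mutant shield, and 9.59 and 22.9 in WT shield. In each mutant group 1 library was at 0 and the other above both wild type libraries. The log2 difference of −1.72 (SE 1.30, limma adjusted p = 0.984) accordingly turned to 0.66 without the mutant replicate 1 libraries of both stages. That of gas1a was 2.74 without the same libraries, so the opposite signs rest on them. Of 11 genes for Hedgehog ligands and receptors, 10 were detected and 5 tested, with 0 called in either direction over both stages. ptch1, a Hedgehog receptor and target gene, had the smallest p among them, with 2.67 and 5.90 FPKM in WT bud and under 1 FPKM in the other 6 libraries (unadjusted p = 0.033, adjusted p = 0.983). The ligand genes shha, shhb, ihha and ihhb reached 1 FPKM in mutant bud replicate 2 alone; they were named after their values were seen.

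Glypicans carry heparan sulfate chains and bind Wnt, FGF, BMP and Hedgehog ligands. gpc4, known in zebrafish as knypek and needed for convergence and extension in gastrulation, stood at 38.7 and 60.6 FPKM in mutant bud, 8.94 and 27.6 in WT bud, 2.89 and 61.4 in mutant shield, and 4.49 and 61.0 in WT shield. The mutant bud libraries lay above both WT bud libraries, and at shield the genotypes had nearly the same pairs of values. Replicates of the same shield group differed far more than the genotypes did there.

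gpc3 was listed at 0 in both mutant bud libraries, against 2.13 and 2.17 FPKM in WT bud; at shield it stood at 0 and 8.58 FPKM in mutant cells, against 8.34 and 3.34 FPKM in WT cells. With the mutant bud libraries at 0 no fold is given; the limma adjusted p over both stages was 0.984. gpc1b had 0 and 1.01 FPKM in mutant bud, 1.59 and 1.12 in WT bud, 0 and 15.8 in mutant shield, and 0 and 4.32 in WT shield. gpc5c had 0 and 1.84 FPKM in mutant bud and was listed at 0 in WT bud, with 8.51 and 3.08 FPKM in mutant shield, against 0 and 2.31 FPKM in WT shield. gpc5c was the 1 member of 27 (3.70%) separated as higher in mutant shield, against 4.26% of all genes, and had a limma adjusted p of 0.983 over both stages.

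The glypican genes gpc2, gpc5a and gpc6b were detected in 2, 1 and 2 libraries and stayed at or below 4.73 FPKM, all of them without a detected value in either bud group. gpc1a, gpc5b and gpc6a were not detected. In the RefSeq gene order of zebrafish assembly GRCz12tu, gpc4 and gpc3 are adjacent, as are gpc5b and gpc1a, and 1 protein-coding gene lies between gpc5c and gpc1b. Of the adjacent pairs, gpc4 reached 61.4 FPKM and gpc3 8.58 FPKM, while gpc5b and gpc1a were both undetected. Of 17 genes for ligands and partners of glypicans, 12 were tested and 0 were called over both stages. Where 29% of all genes lay above 0 and 71% below, 5 of these 12 lay above and 7 below. fgf2 had the smallest p of these, listed at 0 in the 4 mutant libraries and at 2.14 and 1.03 FPKM in WT bud and 6.57 and 1.12 in WT shield (unadjusted p = 0.019, limma adjusted p = 0.983).

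Ephrin-A ligands signal by contact to EphA receptors on neighbouring cells and set tissue boundaries by repulsion. efna1b was the most abundant of them, with 0 and 8.30 FPKM in mutant bud, against 24.7 and 24.2 FPKM in WT bud, and with 11.8 and 38.2 FPKM in mutant shield, against 3.59 and 50.2 FPKM in WT shield. At bud the mutant libraries lay below the wild type ones, and at shield the genotypes overlapped. Taken over both stages, efna1b differed by −1.26 (SE 1.10) with a limma adjusted p of 0.984, and by −0.39 to −2.13 when 1 library was left out, the ends being without WT shield replicate 2 and without WT shield replicate 1. Without both mutant replicate 1 libraries it was −0.05, and the interaction of genotype and stage had an adjusted p of 1.

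efna2a had 0 and 5.70 FPKM in mutant bud, 6.59 and 9.70 in WT bud, 0 and 0.674 in mutant shield, and 0 and 1.78 in WT shield, which gave −1.08 over both stages (SE 0.94, limma adjusted p = 0.984). That value was −0.40 without mutant bud replicate 1 and −1.77 without mutant bud replicate 2. In wild type its bud libraries lay above its shield libraries without overlap. efna5a had 0 and 24.5 FPKM in mutant bud, 6.01 and 7.11 in WT bud, 0 and 2.21 in mutant shield, and 0.152 and 4.17 in WT shield. In wild type efna5a too was higher in both bud libraries than in both shield libraries, and its highest value was in mutant bud replicate 2.

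That library also held the highest values of efna1a and efna3b. efna1a had 0 and 12.4 FPKM in mutant bud, 0.556 and 2.41 in WT bud, 0 and 0 in mutant shield, and 0 and 0.305 in WT shield. efna3b had 0 and 17.3 FPKM in mutant bud and 0 and 1.78 in WT bud, and was listed at 0 in the 4 shield libraries. efna1b and efna3b are adjacent in the RefSeq order, and efna3b was highest in mutant bud replicate 2, where efna1b stood at 8.30 FPKM. efna5b reached 1.42 FPKM and efna3a 1.01 FPKM at most, and efna2b was not detected. Of 14 listed receptors of ephrin-A ligands, 8 were detected and 6 tested, with 0 called over both stages. Where 29% of all genes lay above 0 and 71% below, 3 of these 6 lay above and 3 below. The smallest p was that of epha4b, with 0 and 0.211 FPKM in mutant bud, 0.476 and 1.14 in WT bud, 0 and 0 in mutant shield, and 3.77 and 1.22 in WT shield (unadjusted p = 0.042, limma adjusted p = 0.983).

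Repulsive guidance molecules are co-receptors of bone morphogenetic proteins and ligands of neogenin. All 3 were higher at bud than at shield in mutant cells without overlap, which 14.7% of all genes were. rgma stood at 10.0 and 35.2 FPKM in mutant bud, 20.5 and 32.8 in WT bud, 0 and 7.84 in mutant shield, and 0 and 26.8 in WT shield. rgmb stood at 13.6 and 15.3 FPKM in mutant bud, 2.94 and 9.17 in WT bud, 0 and 0.841 in mutant shield, and 0 and 2.41 in WT shield. rgmb was thus higher at bud in both genotypes, with a log2 difference between bud and shield of 3.51 in mutant cells (SE 1.51, unadjusted p = 0.034, limma adjusted p = 0.731).

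rgmd stood at 17.98 and 12.7 FPKM in mutant bud, 12.3 and 5.38 in WT bud, 1.04 and 4.51 in mutant shield, and 0 and 5.80 in WT shield. In wild type the bud and shield libraries of rgma and rgmd overlapped. rgmb and rgmd were also higher in both mutant bud libraries than in both WT bud libraries, by a narrow margin for rgmd (12.7 in the lower mutant library against 12.3 in the higher WT one). In 10 listed receptors and ligands of this family, 9 were tested and 0 called over both stages. Where 29% of all genes lay above 0 and 71% below, 7 of these 9 lay above and 2 below. bmp6 had the smallest p among them (unadjusted p = 0.206, limma adjusted p = 0.984).

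GDNF family receptors, which present ligands of the GDNF family to the kinase Ret, were nearly all undetected. gfra3 reached 1.77 FPKM in WT bud replicate 2, and the other 6 stayed at or below 0.492 FPKM. Of 6 symbols listed for Ret and its ligands, the table held 4, and 0 of these reached 1 FPKM. The others had no entry under those symbols and so were not measured. The 4 neuritin genes, which act in neurite growth, stayed at or below 0.621 FPKM.

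Members whose libraries did not overlap between groups were counted beside all genes, and the difference between the shares was not tested. At bud, 7 of 27 members (25.9%) were lower in both mutant libraries than in both wild type libraries, against 28.9% of all genes, and 4 (gas1a, gpc4, rgmb and rgmd, 14.8%) were higher, against 8.19%. At shield, 2 (alpl and thy1, 7.41%) were lower, against 12.2% of all genes. Between bud and shield, 4 members were higher at bud and 3 lower in mutant cells, against 14.7% and 8.77% of all genes. In wild type cells 6 were higher and 2 lower, against 29.1% and 9.89%. These shares describe the 27 members that passed the filter of at least 1 FPKM in 2 libraries, not all 49.

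**Figure D4:**
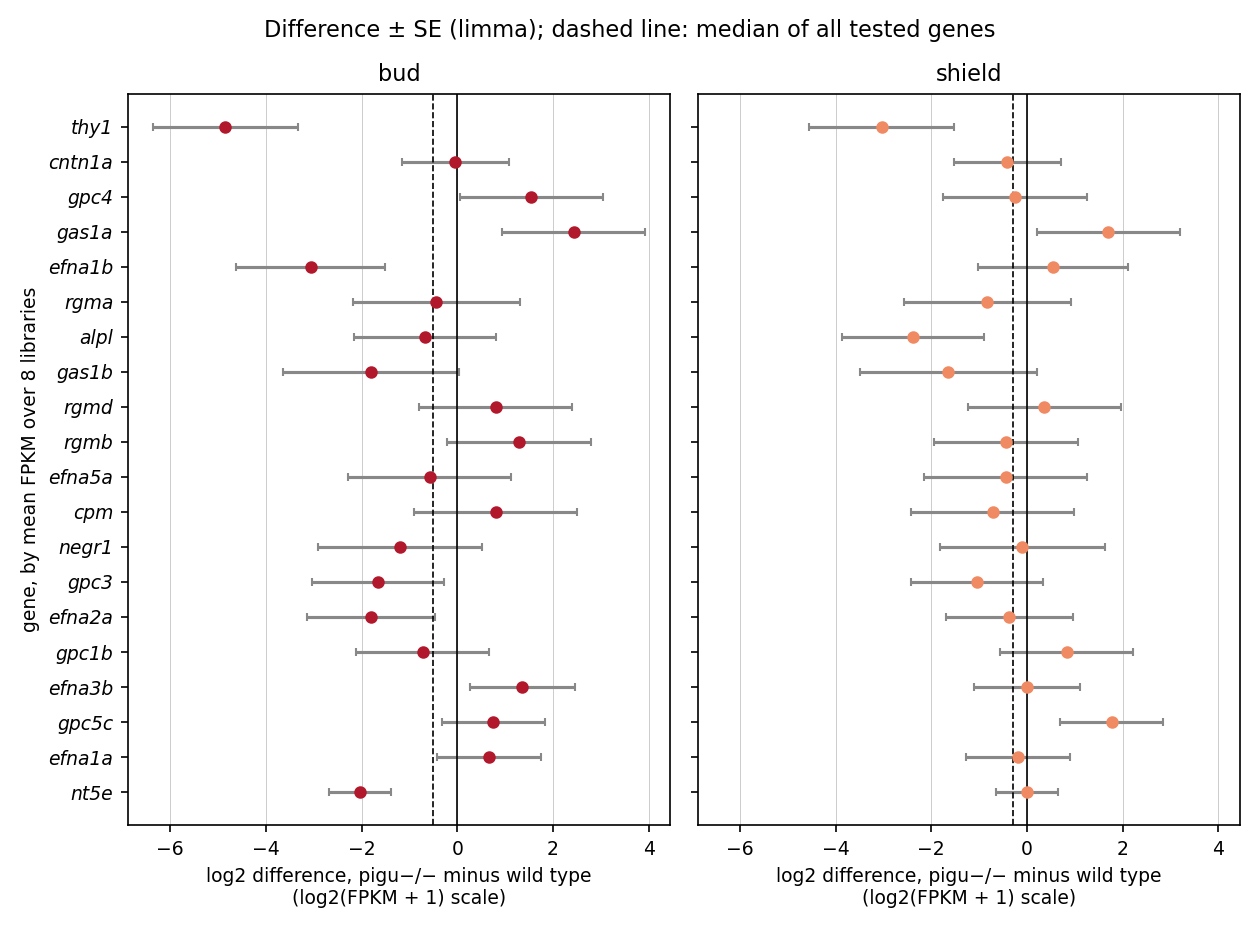
Log2 difference between pigu-/- and wild type libraries (x axis, log2(FPKM + 1) scale) with its limma standard error, for the 20 members described library by library under the naming rule, at bud (left) and shield (right); the solid line is 0 and the dashed line the median of all tested genes (−0.51 at bud, −0.30 at shield). thy1 lies lowest at both stages and gas1a highest at bud, no member passed the test, and differences of genes listed at 0 in a group depend on the pseudocount.

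Replicates also set how well the member values could be repeated. Across the 27 tested members, Pearson's r of log2 values between replicates was 0.62 in mutant bud, 0.86 in WT bud, 0.48 in mutant shield and 0.58 in WT shield. Over all tested genes it was 0.64, 0.90, 0.68 and 0.80 in the same order. These values are given as a description over genes of the same libraries. The highest of the 8 values fell in mutant bud replicate 2 for 9 of the 27 members (cpm, efna1a, efna3b, efna5a, gas1a, gas1b, reck, rgma and rgmb), or 33.3%, against 18.2% of all tested genes. In mutant bud replicate 1 it was 2 members, alpl and rgmd, or 7.41%, against 17.9% of all tested genes.

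The machinery that attaches, remodels and releases the anchor was read beside the members. Over both stages 0 of 5 transamidase genes and 0 of 10 remodelling and transport genes passed the limma test in either direction. Of 8 genes listed as anchor-cleaving enzymes, 4 were tested, notum1a among them, and 0 passed. In these lists in turn 5, 9 and 4 genes lay below 0, where 71% of all genes also lay. pigk, which codes for the catalytic subunit of the transamidase and had the smallest p of its list, had 0 and 0.184 FPKM in mutant bud, against 4.48 and 8.83 FPKM in WT bud, and 0 and 0.187 FPKM in mutant shield, against 5.10 and 4.02 FPKM in WT shield. Its libraries did not overlap between genotypes at either stage, which 4.46% of all genes showed in the same direction. The limma difference of pigk was −2.55 (SE 0.85, unadjusted p = 0.0086, adjusted p = 0.983). pigu itself had 0 and 7.32 FPKM in mutant bud, 2.78 and 14.6 in WT bud, 0.813 and 10.95 in mutant shield, and 11.5 and 15.0 in WT shield, so that transcript was still read in 3 of 4 mutant libraries, in 1 of them below 1 FPKM. notum1a, which codes for a secreted hydrolase known for removing a lipid from Wnt proteins and for acting on glypicans, had 0 and 26.6 FPKM in mutant bud, 27.1 and 29.3 in WT bud, 0 and 36.6 in mutant shield, and 3.86 and 26.9 in WT shield.

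Outside the members, 61 other symbols of genes for GPI-anchored proteins were looked up. The table held 48 of them, 18 were detected, 6 were tested and 0 were called over both stages. ca15b, a carbonic anhydrase gene of the germ plasm, was far above every member, with 2873 and 547 FPKM in mutant bud, 1314 and 2460 in WT bud, 199 and 4703 in mutant shield, and 792 and 4767 in WT shield. spaca4l had 18.9 and 14.8 FPKM in mutant bud, against 3.56 and 0.840 FPKM in WT bud, and 2.45 and 3.73 FPKM in mutant shield, against 3.95 and 5.94 FPKM in WT shield (log2 difference over both stages 1.04, SE 1.07, limma adjusted p = 0.990). tdgf1, which codes for the Nodal co-receptor One-eyed pinhead and was named after its values were seen, stood at 2.57 and 26.9 FPKM in mutant bud, 5.16 and 13.7 in WT bud, 104 and 126 in mutant shield, and 128 and 227 in WT shield.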

How the data were processed

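The deposited table holds FPKM, which the authors computed for each library; per the submitters' processing notes the tools were Trim Galore, STAR 2.5.3a and Cufflinks 2.2.1, with build danRer11. The annotation, strand use and handling of multiply aligned reads are not given in the sources used here, so overlapping and antisense genes cannot be told apart. The table has no read counts, so depth is unknown and no counting interval is given. Of 31934 entries, 2 had a missing value and were dropped; for 545 symbols with several entries the one with the highest mean FPKM was kept.

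Values were taken as log2(FPKM + 1) without further scaling. Genes with at least 1 FPKM in at least 2 of 8 libraries were tested with limma-trend (limma 3.58.1, R 4.3.3) on the 4 group means, two-sided, with the Benjamini-Hochberg method over 13984 genes in each of 6 comparisons. The fit had 4 residual degrees of freedom, and 15.4 after moderation. It was run on simulated data, where recovery of the set changes was required only at a fixed spread. The power of the test at the spread of these libraries is not given here. The design text calls the replicates biological, each from pooled cells; p-values measure the spread between these pools. Members with a group mean of at least 5 FPKM, or an unadjusted p under 0.05, were described library by library, 20 in all; other members are given more briefly, and 4 genes per further list with the smallest p could be named. Members and lists were chosen with earlier results of these data known. Gene order came from RefSeq, which held all 49 symbols, on an assembly other than danRer11, so no coordinates are given. Figures used Python 3.11.15 with matplotlib 3.10.9.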

Additional observations from a re-analysis of the deposited data

How the results depend on the processing

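In 124 recalculations of the counts of members called, over pseudocount, filter, scaling, moderation, weights, merging of entries, the libraries included and leaving out each library, 0 members were called every time. With all 8 libraries in the fit, at most 8 genes in all were called, for stage in mutant cells with median-of-ratios scaling. In fits with all 8 libraries the count of 0 is thus not particular to the members. Fits with a library left out are not covered by that statement. The lowest adjusted p of any member was 0.088, for thy1 at bud when replicate 1 of mutant shield and replicate 2 of mutant bud were left out, a setting also chosen after seeing the data. Of 300 recalculated differences of 10 members, 299 kept their direction. These differences had been picked in the same data for their size or an unadjusted limma p under 0.05. Changes of filter, moderation, weights or block left the estimate itself as it was, as did leaving out a library outside the comparison. The count of 299 is therefore no measure of robustness. The difference of gas1b over both stages turned to 0.66 without the mutant replicate 1 libraries of both stages. That choice was made after seeing the data, and the cause was not tested. Differences of thy1 over both stages ranged from −5.18 to −2.71 when 1 library was left out.

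Detection depended on the threshold. With 5 FPKM in place of 1, 21 members were detected in at least 1 library and 1 in all 8. Leaving out 1 library gave 30 to 32 members detected in at least 1 library and 2 to 4 in all that remained, 4 being without WT shield replicate 1, and 5 without both mutant replicate 1 libraries.

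The labels do not say that replicate numbers pair the samples, and the deviations of same-numbered libraries correlated at −0.01 to 0.33 between groups. With the replicate number as a block, 0 members were called in any of the 6 comparisons, and the adjusted p of thy1 over both stages was 0.528. Depth is unknown, and zeros in the libraries with few detected genes limit every value of a low member.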
